A study of Rattus norvegicus with 64 samples.

Results

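The subject is 188 transcripts that were lower at 10 h than at 5 h in the livers of rats given only vehicle, out of 28420 transcripts in the deposited tables. They were chosen by 3 conditions on the liver vehicle libraries, using levels in CPM (estimated read counts scaled to 1000000 counts per library). The ratio of the 10 h to the 5 h median, with 0.5 CPM added to each, had to be at most 0.57. The 5 h median had to be at least 1 CPM, and at least 7 of the 8 livers taken at 10 h had to lie below that median. A total of 12449 transcripts met the condition on level.

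The study gave Sprague Dawley rats a single dose of an agent and took liver and kidney later. Rats of the acetaminophen groups received acetaminophen at 2 g/kg and gave tissue at 10 h or at 5 h. Rats of the vehicle groups received 6 ml/kg of polyethylene glycol at 50%, and their tissues were likewise taken at 10 h or at 5 h. Each combination held 8 rats, 32 in all, and the 2 tissues gave 64 libraries of poly-A RNA in 8 groups of 8.

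Acetaminophen is an analgesic that in overdose is turned by liver enzymes into a reactive product that binds proteins and injures liver cells, and the rat is known to resist this injury more than the mouse. In the kidney the same drug can injure tubule cells. Liver transcripts are also known to vary over hours without any drug, with the time of day, with feeding and fasting, and with handling and dosing. A vehicle group at each time therefore shows what changed without acetaminophen. The labels give neither the clock time nor the feeding state, nor sex, batch or animal, so the hours after dosing and the hours of the day cannot be told apart. The protocol text speaks of cultured cells where the tissue labels name liver and kidney. The transcripts carry Ensembl identifiers that could not be paired with gene symbols, so no gene names or roles are given, tissue identity was not checked against marker genes, and most members are called here by their length in bases.

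Estimated counts summed to between 21467448 and 29496773 per liver library and to between 18039111 and 26148119 per kidney library. One liver library stood apart in these transcripts. In 5 h vehicle replicate 6 the 188 transcripts summed to 4555 CPM, where the median of that group was 8808, and their median log2 level relative to the group medians was -0.85, where the median library stood at 0.03. Its TMM factor, edgeR's scaling of library size, was 0.802, where the rest of the group had 1.02 to 1.1. The CPM given here do not use that factor. A low factor goes with low plain CPM over most transcripts, so part of this shift is not particular to the members. The same library had a slope of its log2 levels on transcript length of -0.138. The group median was 0.024 and the highest value 0.063. Among 10 h acetaminophen livers the lowest slope was -0.192, in replicate 8, with a group median of 0.014, and among 5 h acetaminophen livers replicates 6 and 7 had -0.092 and -0.096, with a group median of 0.029. The part of these 4 libraries in the results was not tested beyond leaving them out. Counts of calls against 5 h vehicle livers, and the 5 h changes of the members described one by one, are given with and without replicate 6.

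The fall that defines the transcripts ranged widely in size. The ratio of the 10 h to the 5 h vehicle median ran from 0.062 to 0.57 with a median of 0.473, while it was 0.948 for the median of the 12449 transcripts with the same minimum level. These ratios are of plain CPM, and TMM factors of 10 h vehicle livers were 0.967 to 1.08. In edgeR's fit, which uses the factors, the median log2 change of all transcripts tested was -0.01. Ratios, sums and medians in CPM thus carry a small fall that is not particular to the members. The ratio was under 0.25 for 24 transcripts, from 0.25 to under 0.4 for 34, and 0.4 or more for 130. All 8 livers at 10 h lay below the 5 h median for 141 transcripts, and 7 of 8 did for 47. The 3 ratios just inside the threshold were 0.5693, 0.5698 and 0.57, and the 3 just outside were 0.5703, 0.5712 and 0.5724, so the list has no natural edge at its threshold. All these values describe how the transcripts were picked and carry no test.

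The members were mostly transcripts of moderate abundance. The 5 h vehicle medians ran from 1 to 1840 CPM with a median of 8.68 CPM, and the 10 h vehicle medians had a median of 3.6 CPM. Of the 188, 61 stood under 5 CPM at 5 h, 67 from 5 to under 20, 42 from 20 to under 100, and 18 at 100 or more. The most abundant, of 4690 bases, ranged in vehicle livers from 92.2 to 1841 CPM at 10 h (median 797) and from 3.88 to 4777 CPM at 5 h (median 1840). Its acetaminophen livers spanned 432 to 2211 CPM at 10 h (median 1209) and 205 to 3190 CPM at 5 h (median 672). The 4 groups of this transcript overlapped throughout, and none of its liver comparisons outside the defining one passed the test.

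The steepest falls were often those of transcripts listed at 0 in some livers. Of the 24 transcripts with a ratio under 0.25, 18 had fewer than 0.5 reads in at least 1 of the 16 vehicle livers, and 13 already in at least 1 of the 8 livers at 5 h. Among the other 164 the numbers were 24 and 18. The lowest ratio, 0.062, belonged to a transcript of 683 bases that 4 of 8 vehicle livers at 10 h and 2 of 8 at 5 h lacked, and with acetaminophen 2 of 8 livers at 10 h and 3 of 8 at 5 h. The quantification divides reads among related transcripts, so a transcript without RNA and one whose reads went to a relative cannot be told apart. A change of a single transcript does not show a change of its gene.

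The members had a longer median length than the transcripts tested in liver and were more often of liver type. Their lengths ran from 420 to 10908 bases with a median of 2414, against 1994 for the 14943 transcripts tested in liver. The 117 members longer than that median had a median vehicle ratio of 0.462, and the 71 shorter ones 0.501. In TPM, which are scaled to length, 54 members (28.7%) stood at least 2 times higher in 5 h vehicle liver than in 5 h vehicle kidney, where 8.35% of the transcripts tested in liver did. Another 54 (28.7%) stood at least 2 times higher in kidney, where 55.8% of those tested did, and 80 lay within 2 times. For 12 members the liver level was at least 16 times that of kidney, and for 2 it was the reverse. A high level in 5 h vehicle liver was part of the choice, so the share of liver transcripts is a description. CPM are not scaled to length, so the minimum level favours long transcripts, and the length difference is a description too. Lengths of the 12449 transcripts with that level were not compared.

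**Figure D1:**
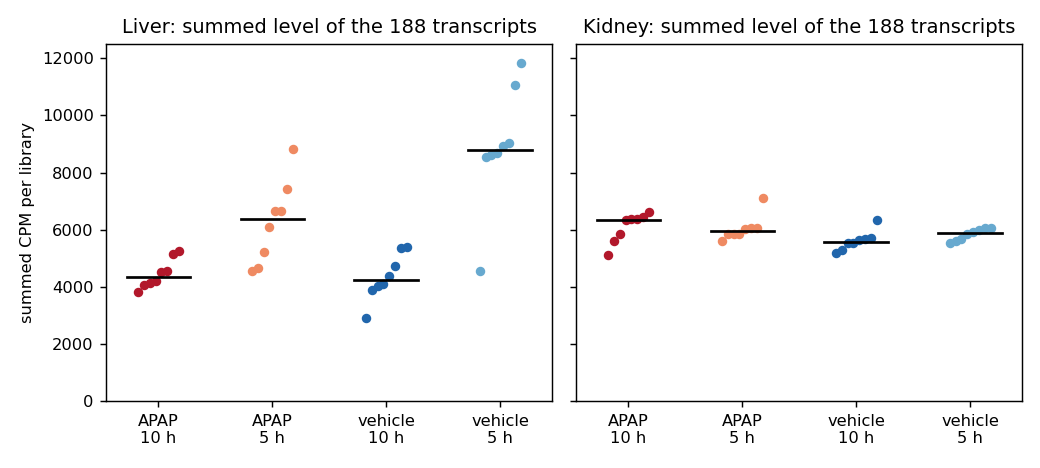
Summed level of the 188 transcripts in CPM (vertical axis, from 0) in each of the 64 libraries, liver at left and kidney at right; points are libraries and bars are medians of 8, and APAP is acetaminophen. The liver medians are 4364 and 6375 CPM with acetaminophen at 10 h and 5 h, and 4252 and 8808 CPM with vehicle. The kidney medians stay between 5584 and 6359 CPM. The vehicle livers chose the members, which favours the wide vehicle difference.

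Summed over the 188 transcripts, acetaminophen livers differed less between the times than vehicle livers did. Their median was lower at 5 h and nearly the same at 10 h. The vehicle livers chose the members, which favours a wide gap between the vehicle sums and a narrower one in any other livers. The smaller difference with acetaminophen is therefore a description. The sum lay between 3817 and 5263 CPM (median 4364) in acetaminophen livers at 10 h, and between 4550 and 8822 CPM (median 6375) at 5 h. In vehicle livers it lay between 2917 and 5405 CPM (median 4252) at 10 h, and between 4555 and 11837 CPM (median 8808) at 5 h. The acetaminophen livers overlapped between the times, and 5 h vehicle replicate 6 was the only liver of its group inside the 10 h vehicle range, since the other 7 lay at 8545 CPM or more. In kidney the sum lay between 5118 and 6608 CPM with acetaminophen at 10 h and between 5598 and 7129 CPM at 5 h, and between 5205 and 6343 CPM with vehicle at 10 h and between 5536 and 6073 CPM at 5 h. All 4 kidney groups overlapped. The sum weighs abundant members most: the transcript of 4690 bases alone had a 5 h vehicle liver mean of 1975 CPM, beside a mean sum of 8914 CPM. The median member log2 level relative to the 5 h vehicle medians weighs members equally. Its group medians in liver were -0.98 and -0.61 with acetaminophen at 10 h and 5 h, and -1.18 and 0.03 with vehicle. In tissue RNA, fewer cells of a type and less RNA per cell cannot be told apart.

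The first question was whether the same transcripts fell between 5 h and 10 h in acetaminophen livers, which the choice of members did not use. Of 187 members that passed the filter on low counts, 50 were lower at 10 h, which is 26.7%, where 4.72% of all transcripts tested were lower. There were 6 higher, 3.21%, against 6.99% of all transcripts tested. The median log2 change of the members was -0.41, where that of all transcripts was -0.02, and 131 of the 187 changes were negative. A call means edgeR's quasi-likelihood test, two-sided, gave a p under 0.05 after Benjamini-Hochberg adjustment over every transcript in that fit. Leaving out each of the 16 acetaminophen livers, or vehicle replicate 6 at 5 h, gave between 41 and 55 members that fell and between 3 and 9 that rose. Without the 4 libraries with low length slopes, 56 fell and 9 rose. On TPM, tested with limma, 35 fell and 8 rose. The median log2 change there was -0.16 over the members and 0.04 over all transcripts. The lowest count of rises, 3, came without acetaminophen replicate 1 or replicate 3 of 5 h.

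The rule that picked the members gave a similar reading when it was put to other libraries. Applied to the acetaminophen livers it was met by 220 of 12396 transcripts, 1.77%, and by 35 of the 163 members with the minimum level there, 21.5%. These 35 made up 15.9% of that list and 18.6% of the 188 members. The median ratio of the members was 0.778 with acetaminophen, where the median of all transcripts was 1.01. The fall was thus shallower with acetaminophen for most members. Of the 188 members, 119 had a lower median at 10 h than at 5 h and 41 had a ratio of at most 0.57. The acetaminophen ratio was higher than the vehicle ratio for 167. Since the vehicle ratio was selected to be low, a less extreme ratio in any other set of livers is favoured by the choice.

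**Figure D2:**
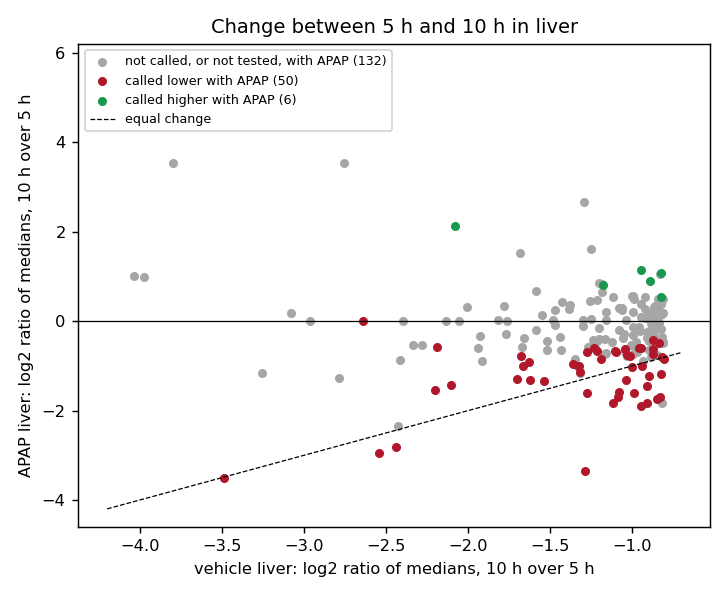
Log2 ratio of the 10 h median over the 5 h median (0.5 CPM added) in acetaminophen livers (vertical axis) against the same ratio in vehicle livers (horizontal axis, the ratio that chose the members) for 188 transcripts. Red points are the 50 called lower at 10 h with acetaminophen, green the 6 called higher, grey the rest; the dashed line marks equal change, and most points lie above it.

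The 50 transcripts that fell with acetaminophen had a median log2 change of -1.27. Their median ratio of medians was 0.498 with acetaminophen and 0.465 with vehicle. The 131 that were tested and not called had a median ratio of 0.944 with acetaminophen and 0.478 with vehicle. The acetaminophen test itself made this split, so the gap between the acetaminophen ratios follows from it and is a description. Those 131 included 81 negative changes, and the largest of their changes was 2.87. Standard errors differed with the depth of the fall: the median was 1.03 for the 24 transcripts with a vehicle ratio under 0.25 and 0.31 for the others. Of those 24, 7 were called lower and 1 higher with acetaminophen, and of the 163 others tested 43 were called lower.

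The transcript ENSRNOT00000046313, of 2880 bases, fell in both tissues and with both agents. In acetaminophen livers it lay between 0 and 2.84 CPM at 10 h (median 0.75) and between 6.94 and 32.2 CPM at 5 h (median 13.8). In vehicle livers it lay between 0 and 1.39 CPM at 10 h (median 0.321) and between 2.28 and 22.9 CPM at 5 h (median 8.71). The 10 h and 5 h livers did not overlap with either agent. The log2 change between the times with acetaminophen was -4.39 ± 0.65 (SE; edgeR adjusted p = 2.13e-05). At equal times acetaminophen and vehicle livers were not distinguished by the test, with log2 changes of 0.71 ± 0.67 at 10 h (edgeR adjusted p = 0.539) and 0.98 ± 0.55 at 5 h (edgeR adjusted p = 0.251, and 0.341 without vehicle replicate 6). It was the member with the lowest vehicle ratio, 0.0892, among those with at least 5 CPM at 5 h that also fell with acetaminophen.

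Others with a deep fall under both agents were of similar abundance. The transcript of 4273 bases had 0.175 to 1.39 CPM in acetaminophen livers at 10 h (median 0.74) and 2.92 to 15.5 CPM at 5 h (median 9.15). In vehicle livers it had 0.576 to 1.62 CPM at 10 h (median 1) and 0.525 to 16.1 CPM at 5 h (median 8.25), with 2 of the 5 h livers, replicates 6 and 8, under the highest of 10 h. Its change with acetaminophen was -3.57 ± 0.49 (SE; edgeR adjusted p = 7.33e-06). The transcript of 3068 bases changed by -3.53 ± 0.70 (SE; edgeR adjusted p = 0.000824), at 0 to 1.63 CPM in acetaminophen livers at 10 h and 2.73 to 18.6 CPM at 5 h. Both were separated completely by time in acetaminophen livers. Larger fitted values, -9.36 for the transcript of 1637 bases and -5.99 for that of 420 bases, rest on livers without reads: 7 of 8 acetaminophen livers at 10 h had none, and 5 of 8 and 3 of 8 had none at 5 h. Those values are no measure of size.

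Some abundant members stood below the vehicle level at 10 h. The transcript of 1742 bases had 120 to 225 CPM in acetaminophen livers at 10 h (median 184) and 497 to 838 CPM at 5 h (median 686). In vehicle livers it had 288 to 616 CPM at 10 h (median 446) and 488 to 1362 CPM at 5 h (median 860). All 10 h acetaminophen livers lay below every other liver. Its change between the times with acetaminophen was -1.97 ± 0.17 (SE; edgeR adjusted p = 1.71e-09), and against vehicle at 10 h it was -1.30 ± 0.16 (SE; edgeR adjusted p = 1.96e-06).

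The transcript of 1709 bases, which was almost absent from kidney, behaved in a like way. It had 274 to 442 CPM in acetaminophen livers at 10 h (median 352) and 572 to 1056 CPM at 5 h (median 956), with 398 to 1128 CPM in vehicle livers at 10 h (median 695) and 760 to 1573 CPM at 5 h (median 1305). Its acetaminophen livers did not overlap between the times, and the change was -1.33 ± 0.19 (SE; edgeR adjusted p = 1.97e-05), while against vehicle at 10 h it was -1.01 ± 0.19 (SE; edgeR adjusted p = 0.000406). The transcript of 2273 bases had 90.5 to 133 CPM in acetaminophen livers at 10 h (median 111) and 167 to 252 CPM at 5 h (median 189). In vehicle livers it had 102 to 167 CPM at 10 h (median 110) and 88.6 to 271 CPM at 5 h (median 226). With acetaminophen its times did not overlap, while its 10 h and 5 h vehicle livers did, and against vehicle at 10 h it was not called (-0.08 ± 0.16, SE; edgeR adjusted p = 0.802).

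The 6 transcripts that rose with acetaminophen between 5 h and 10 h ran against their own fall in vehicle livers. The transcript of 1984 bases had 140 to 376 CPM in acetaminophen livers at 10 h (median 176) and 13.4 to 237 CPM at 5 h (median 40). In vehicle livers it had 31.5 to 150 CPM at 10 h (median 57) and 109 to 407 CPM at 5 h (median 243). Acetaminophen livers thus stood low at 5 h and high at 10 h, the reverse of vehicle livers, with overlap in each case. Its change with acetaminophen was 1.36 ± 0.44 (SE; edgeR adjusted p = 0.0408).

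The other 5 rises were smaller in level or in size. The transcript of 1569 bases rose by 1.57 ± 0.42 (SE; edgeR adjusted p = 0.0118), with 2.02 to 9.85 CPM in acetaminophen livers at 10 h and 0.687 to 2.4 CPM at 5 h. The transcript of 2215 bases rose by 0.88, with 9.2 to 25.5 CPM at 10 h and 3.24 to 16.9 CPM at 5 h. The remaining 3, of 1448, 4485 and 1551 bases, rose by 0.85, 0.79 and 0.61. The transcript of 1551 bases had the smallest of these changes, at 71.2 to 108 CPM in acetaminophen livers at 10 h (median 87.3) and 33.7 to 71.1 CPM at 5 h (median 59.6), without overlap.

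**Figure D3:**
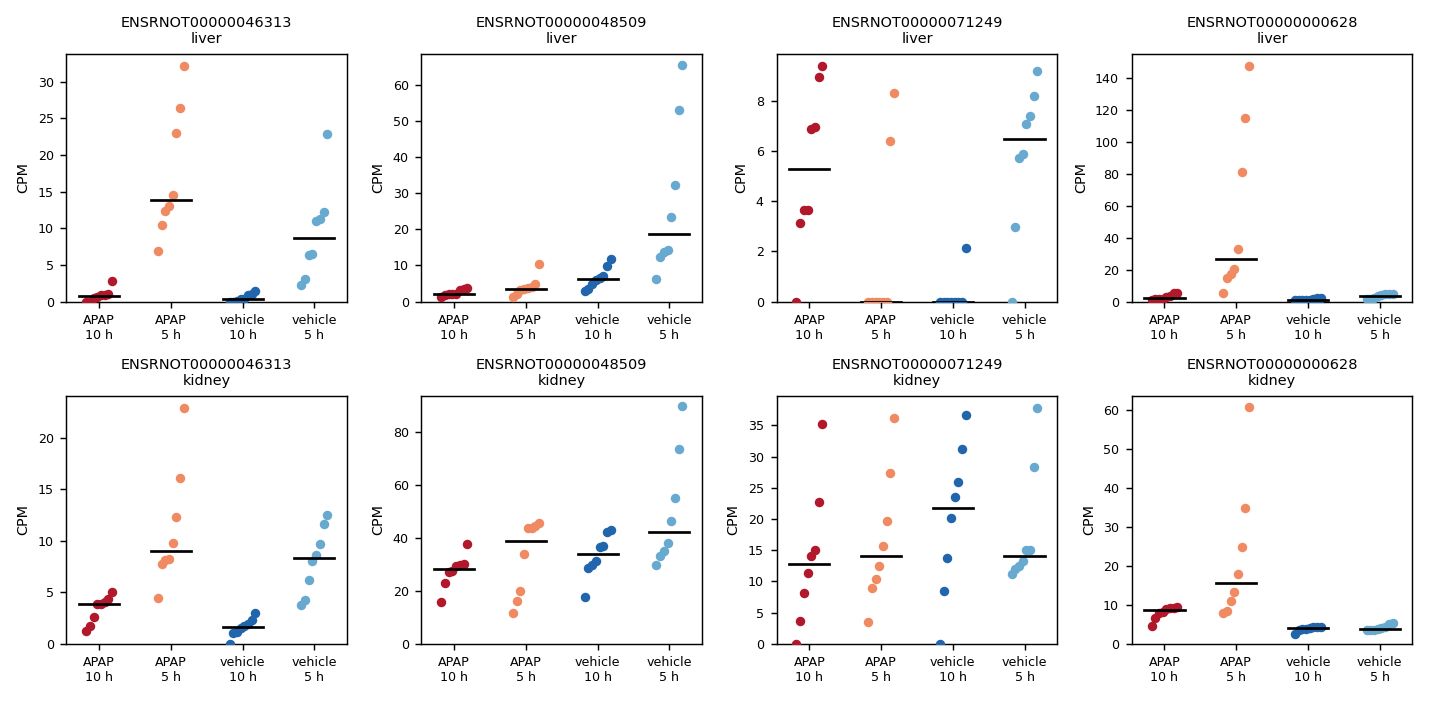
Levels in CPM (vertical axes, from 0) of 4 members named by their identifiers, in liver (top) and kidney (bottom); points are libraries, bars are medians of 8, and APAP is acetaminophen. ENSRNOT00000046313 is low at 10 h under both agents, ENSRNOT00000048509 is low in acetaminophen livers at both times, ENSRNOT00000071249 is listed at 0 in many livers, and ENSRNOT00000000628 is high in acetaminophen tissue at 5 h.

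The comparison of acetaminophen with vehicle at a fixed time asked at which point the agent moved these transcripts. It uses the vehicle livers that chose the members. A member had to be high in 5 h vehicle livers and low in 10 h vehicle livers, which favours lower values with acetaminophen at 5 h and higher values at 10 h, and the counts are descriptions. At 5 h, 42 of 187 members (22.5%) were lower with acetaminophen, where 6.54% of all transcripts tested were, and 10 (5.35%) were higher, where 7.37% were. The median log2 change was -0.52 over the members and 0.03 over all transcripts. Without vehicle replicate 6, 48 were lower and 7 higher, and without the 4 libraries with low length slopes 50 were lower and 11 higher. Other settings gave fewer: 31 were lower and 6 higher without libraries 65 to 68. With only the compared groups fitted, 34 were lower and 7 higher. On TPM, which shifted the median of all transcripts to -0.11, 64 were lower and 5 higher.

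At 10 h the members were more evenly divided. Higher levels with acetaminophen were called for 28 of 187 members (15%), where 9.74% of all transcripts tested were higher. Lower levels were called for 15 (8.02%), where 6.08% of all were lower and where the choice of members worked against the call. The median log2 change was 0.28 over the members and 0.02 over all transcripts. Of the 42 members lower at 5 h, 6 were also lower at 10 h, which is 14.3% of the 5 h list and 40% of the 10 h list. Another 4 were lower at 5 h and higher at 10 h, 9.52% of the one list and 14.3% of the other. Of the 10 members higher at 5 h, 6 were also higher at 10 h, 60% of the 5 h list and 21.4% of the 10 h list. Such overlaps were not counted over all transcripts tested. Whether these shares are particular to the members was therefore not tested.

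**Figure D4:**
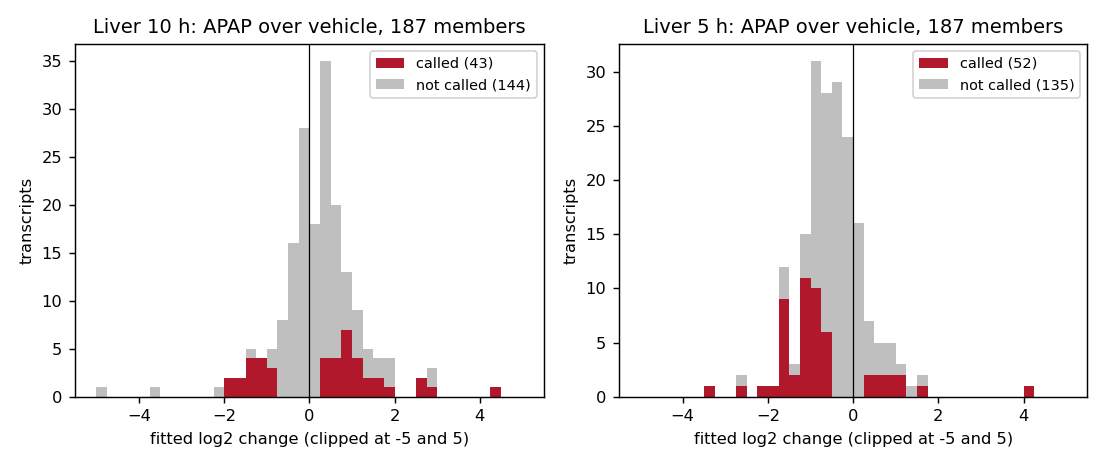
Number of members (vertical axis) by fitted log2 change of acetaminophen over vehicle in liver (horizontal axis, bins of one size, values beyond 5 drawn at the edge) at 10 h (left) and 5 h (right), for 187 tested members; red bars are called and grey bars not called. The 10 h changes have a median of 0.28 with 43 called, and the 5 h changes a median of -0.52 with 52 called.

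Relative to the vehicle medians, more members stood between the 2 vehicle levels than outside them at each time, though fewer did so at both times. The choice of members set these 2 medians apart, which favours medians of any other livers lying between them. The counts and ratios are therefore descriptions. In acetaminophen livers at 10 h, the median lay between the vehicle medians for 104 members, at or below the 10 h vehicle median for 70, and at or above the 5 h vehicle median for 14. The upper side held the fewest members at both times. In acetaminophen livers at 5 h, the median lay between them for 115, at or below the 10 h vehicle median for 42, and at or above the 5 h vehicle median for 31. For 68 members the acetaminophen median lay between at both times. For 26 it was at or below the 10 h vehicle median already at 5 h and again at 10 h. The median ratio of acetaminophen to vehicle was 1.09 at 10 h and 0.645 at 5 h. Without vehicle replicate 6 the median lay between for 103 members at 10 h and 117 at 5 h, for 69 at both times, and the 5 h ratio was 0.612.

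Single members show each of these courses. ENSRNOT00000048509, of 3492 bases, was low with acetaminophen at both times: it had 1.18 to 3.77 CPM in acetaminophen livers at 10 h (median 2.13) and 1.35 to 10.3 CPM at 5 h (median 3.6). Vehicle livers had 2.87 to 11.7 CPM at 10 h (median 6.22) and 6.2 to 65.5 CPM at 5 h (median 18.8). Acetaminophen and vehicle livers overlapped at each time. At 5 h the overlap was that of the highest acetaminophen liver, at 10.3 CPM, with vehicle replicate 6, at 6.2 CPM, since the next vehicle liver stood at 12.3 CPM. The log2 change was -1.40 ± 0.40 at 10 h (SE; edgeR adjusted p = 0.015) and -2.64 ± 0.41 at 5 h (SE; edgeR adjusted p = 4.16e-05), where it was -2.78 without vehicle replicate 6. In kidney its levels were higher, with medians of 28.5 and 38.7 CPM with acetaminophen at 10 h and 5 h and of 33.9 and 42.2 CPM with vehicle, and no kidney comparison passed the test.

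The transcript of 3339 bases followed the same course at a higher level. It had 18.3 to 70.8 CPM in acetaminophen livers at 10 h (median 36.3), against 74.6 to 187 CPM in vehicle livers (median 91.3), without overlap. At 5 h it had 25.4 to 60.2 CPM with acetaminophen (median 35.6), against 45.2 to 256 CPM with vehicle (median 168). The log2 change was -1.43 ± 0.28 at 10 h (SE; edgeR adjusted p = 0.00051) and -2.02 ± 0.28 at 5 h (SE; edgeR adjusted p = 1.15e-05), or -2.07 without vehicle replicate 6. With acetaminophen the times did not differ by the test (0.07 ± 0.27, edgeR adjusted p = 0.92).

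The transcript of 3459 bases was high with acetaminophen at both times. It had 6.66 to 19.8 CPM in acetaminophen livers at 10 h (median 12.5), against 1.48 to 3.05 CPM in vehicle livers (median 1.65), without overlap. At 5 h it had 4.09 to 32.7 CPM with acetaminophen (median 9.17), against 4.08 to 8.68 CPM with vehicle (median 5.28). The log2 change was 2.82 ± 0.34 at 10 h (SE; edgeR adjusted p = 1.15e-06) and 1.23 ± 0.32 at 5 h (SE; edgeR adjusted p = 0.00849), or 1.26 without vehicle replicate 6. Its rise at 5 h goes against the direction that the choice of members favours.

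ENSRNOT00000000628, of 1873 bases, had the largest rise at 5 h. It had 0.95 to 5.14 CPM in acetaminophen livers at 10 h (median 2.14) and 5.09 to 148 CPM at 5 h (median 26.5), against 0.937 to 2.16 CPM in vehicle livers at 10 h (median 1.2) and 1.41 to 4.91 CPM at 5 h (median 3.65). Every acetaminophen liver at 5 h lay above every vehicle liver, and the lowest of them just under the highest acetaminophen liver of 10 h. The change against vehicle at 5 h was 4.10 ± 0.53 (SE; edgeR adjusted p = 4.42e-06), or 4.18 without vehicle replicate 6, and that between the times with acetaminophen was -4.39 ± 0.54 (SE; edgeR adjusted p = 1.77e-06). Its fall was thus steeper with acetaminophen, from a raised 5 h level.

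ENSRNOT00000071249, of 3509 bases, had the largest fitted rise at 10 h, 4.35 ± 1.32 (SE; edgeR adjusted p = 0.0219), and it shows how such values arise. It was listed at 0 in 1 of 8 acetaminophen livers at 10 h and in 6 of 8 at 5 h, against 7 of 8 vehicle livers at 10 h and 1 of 8 at 5 h. Where present it reached 9.41 CPM in acetaminophen livers at 10 h, against 2.13 CPM in the single vehicle liver with reads. DESeq2 gave the same fitted change with an adjusted p of 0.078. The fitted size depends on the livers at 0 and is no bound.

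The difference of the time changes, acetaminophen minus vehicle, contains the vehicle change that chose the members and so favours positive values. It was positive in 26 of 187 members by the test (13.9%), where 3.77% of all transcripts tested were. It was negative in 3 (1.6%), where 1.78% of all were. The median was 0.67 over the members and -0.01 over all transcripts. Without vehicle replicate 6 of 5 h 27 were positive and 3 negative, on TPM 51 and 2, and with library weights 41 and 3. Fewer were positive without a filter, 19 beside 3 negative, and without libraries 65 to 68, 21 beside 2. The shares of all transcripts called in these other fits were not kept. The 3 negative ones, which fell more with acetaminophen than with vehicle, were ENSRNOT00000000628 (-3.12 ± 0.73, SE; edgeR adjusted p = 0.00907) and the transcripts of 3254 bases (-1.33 ± 0.37, SE; edgeR adjusted p = 0.0287) and 1742 bases (-0.98 ± 0.23, SE; edgeR adjusted p = 0.00948). Without vehicle replicate 6 these were -3.21, -1.44 and -0.96. Among the members called, 2 positive values without a liver group mostly at 0 were 3.26 ± 0.60 for that of 1569 bases (SE; edgeR adjusted p = 0.00139; 2.65 without vehicle replicate 6) and 3.10 ± 0.63 for that of 1984 bases (SE; edgeR adjusted p = 0.00286; 3.19 without vehicle replicate 6).

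In kidney, whose libraries had no part in the choice, few members passed the test between the times. The vehicle kidneys came from the same rats as the livers that chose the members. They are therefore not a separate set of animals. Between 5 h and 10 h with vehicle, 3 of 177 members tested (1.69%) were lower, where 0.0289% of all transcripts tested were, which is 5 in all. None was higher, where 0.0116% of all were: 6 had an unadjusted p under 0.05 in that direction, DESeq2 called 1, and limma on TPM or with library weights called 0. With acetaminophen 7 were lower (3.95%), where 1.06% of all were, and 2 were higher (1.13%), where 0.879% were. That split was 5 lower and 5 higher without kidney libraries 44 and 56, and 6 of each with library weights. The median log2 change of the members was -0.03 with acetaminophen and -0.09 with vehicle, beside -0.01 over all transcripts in both, and with acetaminophen it was 0.01 on TPM and 0.02 without kidney libraries 44 and 56. The rule itself was met by 69 of 14958 transcripts in acetaminophen kidney (0.461%), 6 of them among the 158 members with the minimum level (3.8%, and 8.7% of that list). In vehicle kidney it was met by 42 of 14975 (0.28%), 5 of them among 159 such members (3.14%, and 11.9% of that list).

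**Figure D5:**
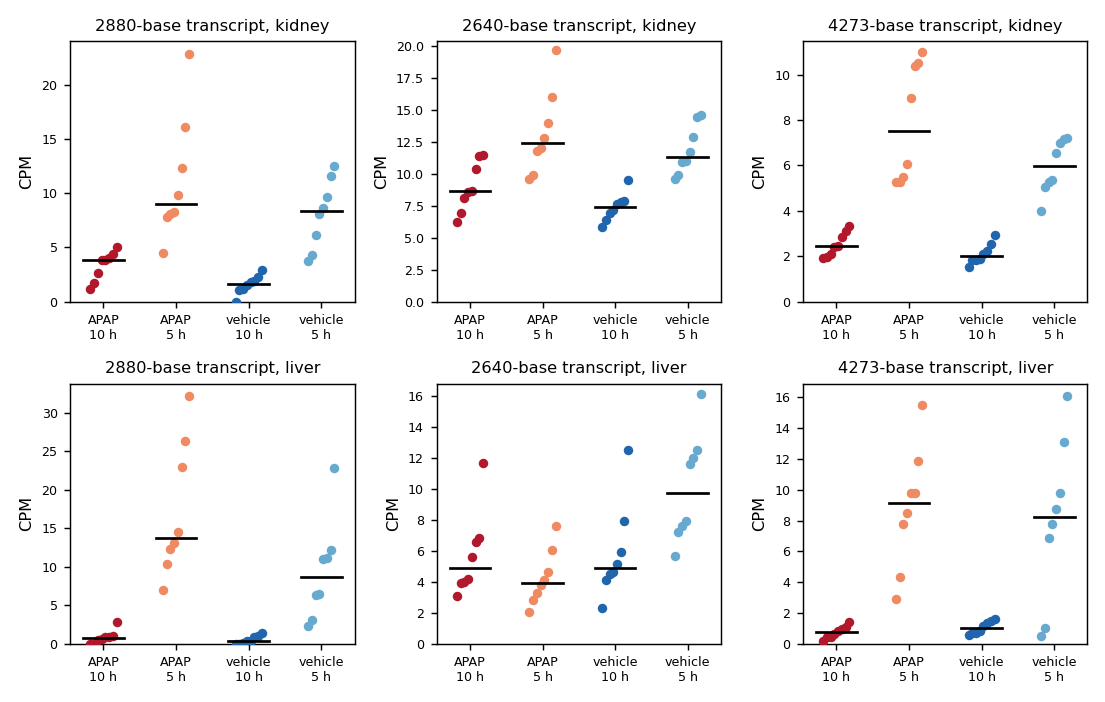
Levels in CPM (vertical axes, from 0) of the 3 members that were lower at 10 h than at 5 h in vehicle kidney, in kidney (top) and liver (bottom); points are libraries, bars are medians of 8, and APAP is acetaminophen. The transcripts of 2880 and 4273 bases are low at 10 h in all 4 pairs of times, and that of 2640 bases is not in acetaminophen liver.

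The 3 members that fell in vehicle kidney also fell in acetaminophen kidney, where they were 42.9% of the 7. The same overlap was not counted over all transcripts tested. ENSRNOT00000046313 had 1.19 to 5.04 CPM in acetaminophen kidneys at 10 h (median 3.82) and 4.44 to 22.9 CPM at 5 h (median 9.05), with overlap. Vehicle kidneys had 0 to 2.94 CPM at 10 h (median 1.64) and 3.77 to 12.5 CPM at 5 h (median 8.36), without overlap. The changes were -1.80 ± 0.40 with acetaminophen (SE; edgeR adjusted p = 0.0149) and -2.41 ± 0.42 with vehicle (SE; edgeR adjusted p = 0.00944). Fitted on the compared groups alone, the vehicle change had an adjusted p of 0.0901.

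The transcript of 4273 bases did not overlap between the times in kidney, with either agent. It had 1.9 to 3.34 CPM in acetaminophen kidneys at 10 h (median 2.43) and 5.27 to 11 CPM at 5 h (median 7.53), and 1.54 to 2.92 CPM in vehicle kidneys at 10 h (median 1.99) and 4 to 7.21 CPM at 5 h (median 5.97). The change was -1.68 ± 0.17 with acetaminophen (SE; edgeR adjusted p = 1.37e-06) and -1.53 ± 0.18 with vehicle (SE; edgeR adjusted p = 1.31e-05). It was not called between the agents in either tissue at either time.

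The transcript of 2640 bases changed by -0.61 ± 0.14 in acetaminophen kidney (SE; edgeR adjusted p = 0.0159) and by -0.71 ± 0.14 in vehicle kidney (SE; edgeR adjusted p = 0.0416). Its levels were 6.2 to 11.5 CPM in acetaminophen kidneys at 10 h and 9.58 to 19.7 CPM at 5 h, and 5.85 to 9.53 CPM in vehicle kidneys at 10 h and 9.58 to 14.6 CPM at 5 h. The vehicle call was lost without a filter (edgeR adjusted p = 0.0671), on TPM (limma adjusted p = 0.0872) and in 11 of the 16 fits without 1 vehicle kidney (10 h replicates 1, 2, 3, 5, 6, 7 and 8, and 5 h replicates 3, 4, 6 and 7), with edgeR adjusted p between 0.0671 and 0.131. In acetaminophen liver it did not fall by the test, with 3.08 to 11.7 CPM at 10 h (median 4.88) and 2.06 to 7.63 CPM at 5 h (median 3.94).

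The other 4 that fell in acetaminophen kidney were ENSRNOT00000000628 (-1.53, edgeR adjusted p = 0.00247) and the transcripts of 2530 bases (-1.04, edgeR adjusted p = 0.0444), 1985 bases (-0.94, edgeR adjusted p = 0.0486) and 2037 bases (-0.90, edgeR adjusted p = 0.0247). Of the 7, 5 had also fallen in acetaminophen liver, 71.4% of the kidney list and 10% of the liver list. How many of all transcripts tested fell in both tissues was not counted, so whether this share is particular to the members was not tested. The 2 that rose in acetaminophen kidney were one of 1429 bases, by 0.40, and the more abundant of 2 members of 3219 bases, by 0.55 ± 0.14 (SE; edgeR adjusted p = 0.0336). This member of 3219 bases had 11.5 to 33.1 CPM in acetaminophen livers at 10 h (median 16.1) and 29.4 to 86.6 CPM at 5 h (median 44.4), and 16.2 to 25 CPM in acetaminophen kidneys at 10 h (median 20.4) and 9.66 to 15.3 CPM at 5 h (median 14.2). It fell in liver, with a change of -1.45 ± 0.24 (SE; edgeR adjusted p = 0.000121), and rose in kidney over the same hours.

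The number of members called between acetaminophen and vehicle in kidney was small and moved with the method. At 10 h, 2 members (1.13%) were higher than with vehicle, where 0.694% of all transcripts tested were, and 1 (0.565%) was lower, where 0.648% were. With library weights 15 were higher and 4 lower, with only the compared groups fitted 9 and 2, by DESeq2 5 and 2, and without kidney libraries 44 and 56 3 and 4. The transcript of 3797 bases rose by 0.69, that of 2571 bases rose by 0.51, and that of 1985 bases changed by -1.10. At 5 h, 7 members (3.95%) were higher, where 2.79% of all were. None was lower, where 2.29% of all were: 14 had an unadjusted p under 0.05 in that direction, and DESeq2 called 5, limma on TPM 2 and limma with library weights 1. By DESeq2 9 were higher at 5 h, and with only the compared groups fitted 2 were. For these other settings the share of all transcripts called was not kept. Whether the members moved more than other transcripts was therefore not tested.

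The 7 members higher in acetaminophen kidney at 5 h included transcripts that kidney held at low levels. ENSRNOT00000000628 had 7.86 to 60.7 CPM in acetaminophen kidneys at 5 h (median 15.6), against 3.44 to 5.32 CPM in vehicle kidneys (median 3.87), without overlap, a change of 2.45 ± 0.29 (SE; edgeR adjusted p = 6.82e-06). It was the single one of the 7 that was also called higher in acetaminophen liver at 5 h. The transcript of 1709 bases, abundant in liver, had 0.0918 to 11 CPM in acetaminophen kidneys at 5 h (median 0.698), against 0 to 0.675 CPM in vehicle kidneys (median 0.0679), with overlap (3.54 ± 0.97, SE; edgeR adjusted p = 0.0296). The remaining 5, of 1395, 573, 1996, 4246 and 1551 bases, rose by 1.27, 0.73, 0.72, 0.58 and 0.34. The one of 1551 bases was called lower in acetaminophen liver at 5 h (-0.56, edgeR adjusted p = 0.0222), or -0.51 without vehicle replicate 6 (edgeR adjusted p = 0.0454).

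The change with acetaminophen between 5 h and 10 h differed between the tissues for a larger share of members than of other transcripts. Liver and kidney came from the same rats, but the labels do not match the libraries of a rat, so this fit takes the 64 libraries as independent and its p-values leave out the shared animals. In it the liver change was lower than the kidney change in 30 of 188 members (16%), where 2.18% of all transcripts tested were. It was higher in 6 (3.19%), where 4.89% were. The median difference was -0.41 over the members and -0.01 over all transcripts. On TPM, 20 were lower and 5 higher, with a median of -0.19 over the members. No library of this comparison chose the members. They were picked for a fall in vehicle liver and not in kidney, so the direction is the one they were picked for. The transcript of 3219 bases just described differed by -1.99 ± 0.29 (SE; edgeR adjusted p = 2.69e-06) and that of 1742 bases by -1.81 ± 0.22 (SE; edgeR adjusted p = 2.41e-08). In kidney that of 1742 bases had 295 to 567 CPM with acetaminophen at 10 h and 360 to 548 CPM at 5 h. ENSRNOT00000046313 differed by -2.57 ± 0.72 (SE; edgeR adjusted p = 0.0186) although it fell in both tissues, and ENSRNOT00000000628 by -2.84 ± 0.57 (SE; edgeR adjusted p = 0.000643). The 6 higher ones included the transcripts of 1984, 1569, 1448 and 1551 bases, which rose in acetaminophen liver.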

How the data were processed

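Per the submitters' processing notes, reads were quantified with kallisto 0.42.4 on genome build Rnor 6.0. The authors deposited 1 table per library with estimated counts, not normalized, and TPM, scaled to transcript length and library size, per the file headers. The length and effective length columns, an other kind of value, were deposited by the authors too. Reads shared by related transcripts are divided by kallisto's model. The labels do not say whether rats of a group were housed or processed apart, so p-values cover the spread between these rats.

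CPM were estimated counts over the file's sum, and values under 0.5 reads are given as 0. Estimated counts were rounded and tested with edgeR (version 4.0.16, under R version 4.3.3; filterByExpr, TMM, glmQLFit, two-sided), 32 libraries of a tissue together, or all 64 for differences between tissues, and adjusted over all transcripts tested. DESeq2 1.42.0 and limma 3.58.1 were alternatives, and the code was tested on simulated data. Standard errors are the log2 change over the root of the F statistic. The 188 members were chosen with earlier results of these data known, as were the lists and tests. The planned lists of genes by pathway and cell type could not be used, since 0 of 28420 identifiers matched a symbol. The 4 identifiers named are the lowest vehicle ratio among members of at least 5 CPM that also fell with acetaminophen, and the called members with the largest fall and the largest rise per time against vehicle (mean log2 CPM of at least 1). Members called by their length are those called in kidney, the 6 rises in acetaminophen liver, and others chosen after their values were seen.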

Additional observations from a re-analysis of the deposited data

Results flagged for a closer look

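Of 64 sets of 8 libraries looked at for a value far from the others, 8 had one. Chance alone gives such a value in some sets. In 5 h vehicle liver, replicate 6 had a summed member level of 4555 CPM and a median member log2 level of -0.85, both far below the rest of its group. The highest summed level stood apart in 5 h acetaminophen kidney, at 7129 CPM, and in 10 h vehicle kidney, at 6343 CPM. In 10 h acetaminophen liver a single high library stood apart for the transcript of 2640 bases, at 11.7 CPM, and for ENSRNOT00000046313, at 2.84 CPM. ENSRNOT00000048509 had 1 high liver at 10.3 CPM in the 5 h acetaminophen group. For ENSRNOT00000071249 the single 10 h vehicle liver with reads stood at 2.13 CPM, with the other 7 at 0.

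The change between 5 h and 10 h in liver differed between acetaminophen and vehicle in 29 members by the edgeR test of the difference, a count that the choice of members favours. The acetaminophen change differed between liver and kidney in 36 members by the same kind of test.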

How the results depend on the processing

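On log2(TPM + 1) with limma, the 5 h liver comparison of acetaminophen with vehicle called 64 members lower and 5 higher, the 10 h one called 7 lower, and the difference of time changes was called in 53. With library weights that difference was called in 44. Without a filter 5 members were higher at 5 h in liver, and without libraries 65 to 68, whose numbers follow the run to 64, 6 were. The 5 h kidney comparison called 14 members by DESeq2 and 2 when only the compared groups were fitted, and the 10 h kidney comparison called 7 by DESeq2, 19 with library weights, 5 without libraries 65 to 68, 7 without libraries 44 and 56, and 11 with only the compared groups. In acetaminophen kidney 4 members fell with only the compared groups. At a ratio of at most 0.5 the rule kept 109 members. Leaving out 1 library at a time gave 41 to 55 falls and 3 to 9 rises in acetaminophen liver, 2 to 4 falls in vehicle kidney, and 173 to 229 members of the rule. Without liver 5 h vehicle replicate 6, which was added after the data were seen along with the kidney vehicle libraries, 48 members were lower and 7 higher at 5 h, and 30 differed in time change. Apart from the fits without 1 library, the counts of calls, or of members under other forms of the rule, moved by over 1.5 times in 16 of 98 settings. Changes of single transcripts were recomputed under these settings for the 4 named by identifier in liver and the 3 falls in vehicle kidney. None turned its sign where the main or the other fit called it. Turns of sign without a call in either fit were not looked for. In kidney, where few members were called, the balance of calls did move: at 10 h against vehicle 3 were higher and 4 lower without libraries 44 and 56, and 2 of each with DESeq2 size factors or on TPM. For single transcripts, ENSRNOT00000048509 at 10 h lost its call on TPM (limma adjusted p = 0.106), and ENSRNOT00000071249 gained calls on TPM at 5 h and between the acetaminophen times (limma adjusted p = 0.0136 and 0.0383). The cause of these moves was not tested. Shares over all transcripts were kept for the main fit only, so whether member counts moved more than those of other transcripts was not tested either. The fit of only the compared groups was not run for the difference of time changes, which uses all 4 liver groups. No paired analysis was possible because replicate numbers follow only the order of the libraries and the labels do not tie liver and kidney libraries to a rat. What depth limits was not tested.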
